A study of Mus musculus with 12 samples.

Results

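Livers labelled as REV-ERB double knockout (DKO) were compared with control livers, 4 mice in each group, by RNA-seq of whole liver taken at zeitgeber time 10, that is 10 h after the start of the light phase. These are 8 of the 12 libraries of the study. The remaining 4, from knockout livers that re-express REV-ERBalpha, entered only the estimate of the spread between livers. The members of the comparison are the genes with a mean of at least 1 TPM (a transcript level scaled for transcript length and library size) over the 8 libraries, 17978 of the 48537 genes in the table.

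The titles name YFP, a fluorescent protein, for both groups. The genotype labels are wildtype for control livers and REV-ERBs double-knockout for the others, and the column names of the deposited table add Cre, a recombinase that cuts DNA between marked sites, only for the livers labelled DKO. An effect of Cre itself and an effect of REV-ERB loss therefore cannot be told apart. The labels used here name no allele, no promoter driving Cre, no route by which YFP or Cre was given, and no sex or age. Each library came from a separate biological replicate liver, per the labels.

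The REV-ERB proteins, REV-ERBalpha from Nr1d1 and REV-ERBbeta from Nr1d2, repress transcription as nuclear receptors by recruiting a corepressor complex with the histone deacetylase HDAC3. They bind an element shared with the ROR activators, the sequence AGGTCA behind an A- and T-rich stretch, and so close a loop on the activators of the circadian clock. In mouse liver REV-ERB protein is most abundant in the later part of the light phase, and the receptors are known for timing lipid, bile acid and glucose metabolism.

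The libraries held between 5621667 and 6906221 reads assigned to genes, as recovered from the TPM values. Hepatocyte markers dominated every library, with a summed level of 56420 to 62600 TPM in the control group and 58333 to 60807 TPM in the group labelled DKO. The control livers were not alike: on the second principal component of the 8 libraries, control replicates 1 and 2 lay at 35.8 and 12.3 and control replicates 3 and 4 at -43.7 and -47.5. Calls that end when either pair is left out are named beside the values below.

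The targeted genes did not check the labels. Nr1d1 (minus strand, chr11:98767932-98775333, mm10) was measured at 64.1, 69.7, 64.9 and 76.2 TPM in control livers and at 78.7, 84.7, 91.7 and 74.8 TPM in livers labelled DKO. The groups overlapped, and the mean difference of 0.26 on the log2(TPM + 1) scale was not past the threshold in a two-sided exact permutation test of the 70 assignments (p = 0.0571). Nr1d2 (minus strand, chr14:18204054-18239127) was measured at 110.7, 108, 82.3 and 85.3 TPM in control livers and at 99.6, 94.5, 84 and 83.7 TPM in livers labelled DKO, a difference of -0.09 (exact permutation p = 0.571). Neither gene passed the test, and because the deleted part is not named in the labels, a level over the whole gene checks nothing. Nr1d1 also overlaps Thra on the opposite strand. The livers are therefore called livers labelled DKO throughout, and each direction given here rests on those labels.

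Of the 17978 genes, 959 were called (5.33%), 538 higher (2.99%) and 421 lower (2.34%), in livers labelled DKO at a Benjamini-Hochberg adjusted p under 0.05 in limma, and the median difference of all genes was 0.00 on the log2 scale. The count of lower genes ran from 241 without DKO replicate 4 to 414 without control replicate 4, and that of higher genes from 335 without DKO replicate 4 to 526 without re-expression replicate 1. Calls made in the full fit and in each of the 12 fits that leave out 1 library are termed stable: 263 genes were stably higher (1.46% of those tested) and 189 were stably lower (1.05%). Stable counts of the gene lists below are to be read beside these shares. The median stable rise was 2.06-fold and the median stable fall 1.92-fold, as ratios of mean TPM, and 128 of the rises and 81 of the falls reached 2-fold in log2(TPM + 1). In the authors' deposited table, the comparison numbered 1, which its header does not name, holds 1502 genes with an adjusted p under 0.05, and 853 of the 959 genes called here are among them with the same sign and 0 with the opposite sign.

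**Figure D1:**
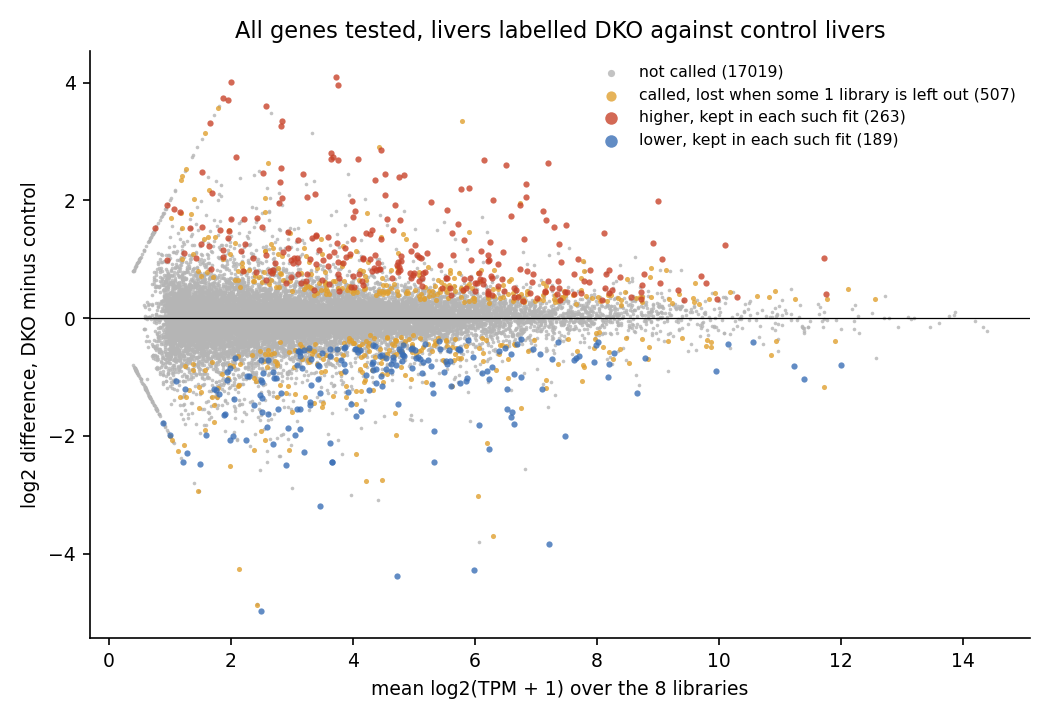
The log2 difference, livers labelled DKO minus control livers, of each gene tested (vertical axis) against its mean log2(TPM + 1) over the 8 libraries (horizontal axis). The 263 stably higher and 189 stably lower genes lie at low as well as at high mean levels. The 507 further called genes, lost when some 1 library is left out, lie closer to 0.

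Several of the largest rises on the log2(TPM + 1) scale were in genes close to silent in control livers. Cdkn1a, an inhibitor of cyclin-dependent kinases, rose 24.1-fold, from 2.22 ± 0.507 to 53.4 ± 4.58 TPM (SD, n = 4), and Loxl4, a lysyl oxidase that crosslinks collagen, rose 21.6-fold. The clock activator Arntl was at 1.02, 0.704, 0.624 and 0.562 TPM in control livers and at 19.5, 21.4, 18.3 and 20.1 TPM in livers labelled DKO. Its partner Npas2 was listed at 0, 0.0863, 0.199 and 0 TPM in control livers and at 11.6, 15.1, 10.5 and 14.8 TPM in livers labelled DKO. No liver of one group came near the range of the other for any of these genes. Of 6 tested clock genes with ROR elements 5 were stably higher and 1 was stably lower, with a difference of -1.10 on the log2(TPM + 1) scale. The rises included Cry1 at 8.95 and 53.6 TPM, Nfil3 at 26.9 and 128 TPM and Clock at 13.5 and 29.2 TPM (means of control livers and of livers labelled DKO).

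Outside the clock, the largest rises covered a mitochondrial protease, a carbonic anhydrase and a tubulin. Clpx, the unfolding subunit of the mitochondrial protease ClpXP and an activator of heme synthesis, was at 69.9, 62.1, 48.9 and 52.5 TPM in control livers and at 347, 398, 376 and 340 TPM in livers labelled DKO. That is a difference of 2.64 ± 0.11 (SE) on the log2(TPM + 1) scale (limma adjusted p = 8.4e-08), and the groups lay far apart. Car14, a membrane carbonic anhydrase, was at 32.9, 40.8, 33.3 and 37.3 TPM against 211, 226, 238 and 214 TPM. Tubb2a, a beta-tubulin, rose from 27.5 ± 5.39 to 185 ± 52.7 TPM. It was the 1 stable call among 18 tested tubulin and actin genes, of which 15 had a positive difference. Ndrg1, a gene known for its response to stress and low oxygen, rose from 3.76 ± 0.304 to 32.3 ± 4.76 TPM, and Lgalsl, a galectin-related gene, from 4.37 ± 0.96 to 33.4 ± 2.89 TPM.

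Membrane proteins and signalling genes were also among the 30 largest rises. Slc45a3, a sugar carrier relative, rose from 8.28 ± 2.15 to 45.5 ± 1.8 TPM, and Tjp3, a scaffold of tight junctions, from 7.94 ± 2.14 to 29.8 ± 2.09 TPM. Raet1d, a ligand of the natural killer receptor NKG2D, rose from 11 ± 2.99 to 62.8 ± 18.8 TPM, but it overlaps its close relative Raet1e on the same strand and reads could be split between them. Asap2, a regulator of small GTPases, rose from 2.54 ± 0.162 to 12.8 ± 2.36 TPM. Ddc, the decarboxylase that makes dopamine and serotonin, rose from 24.7 ± 7.51 to 87.5 ± 12.6 TPM. Slc13a2, a carrier of citrate and succinate, was called higher at 2.21 and 14.8 TPM, and its call ended without control replicates 1 and 2 (limma adjusted p = 0.0626).

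**Figure D2:**
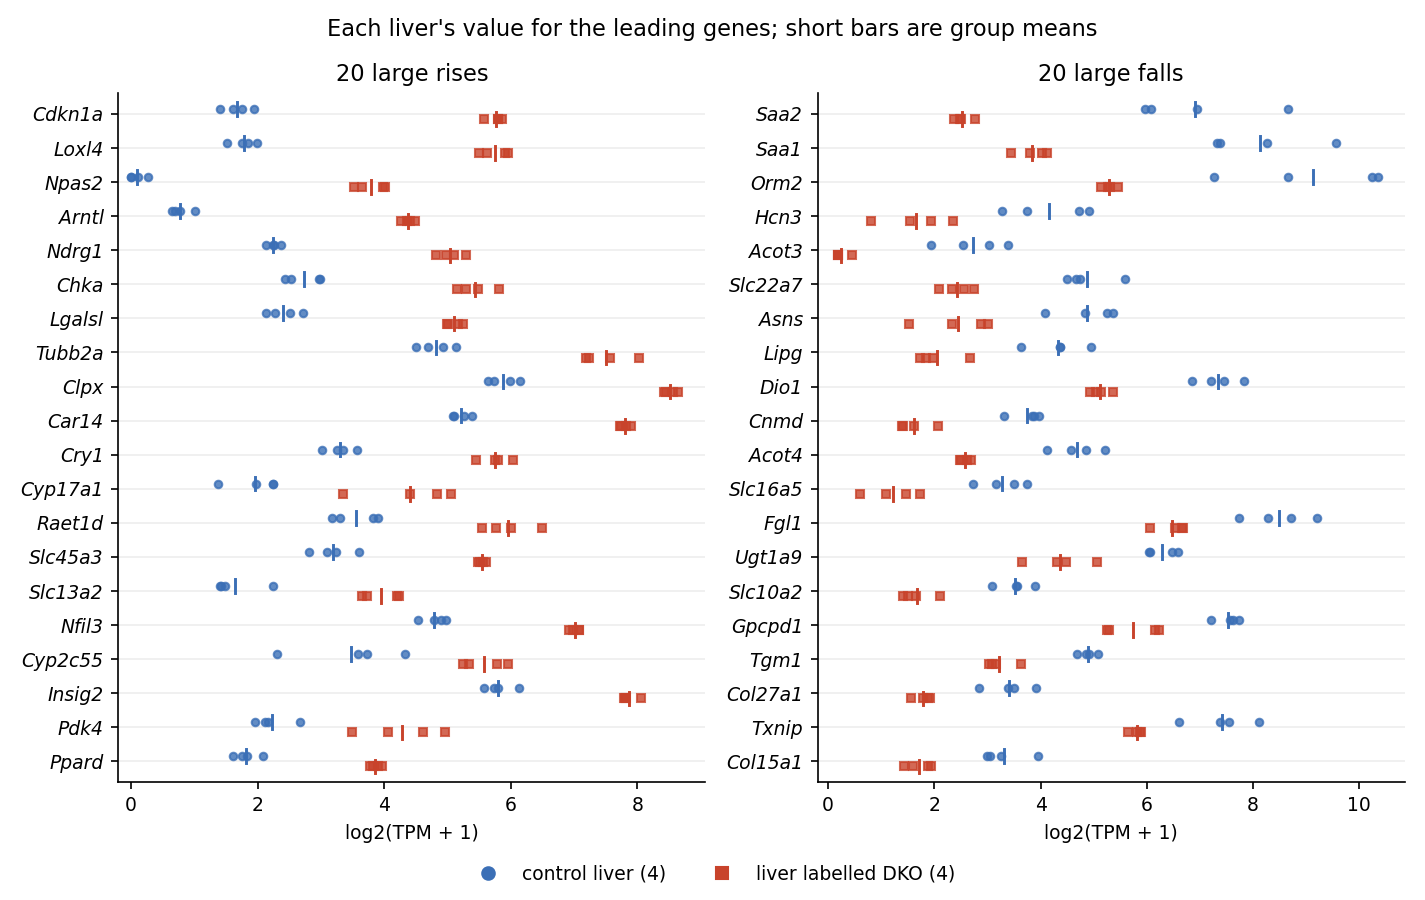
Level of each liver, as log2(TPM + 1) on the horizontal axis, for the 20 largest stable rises (left) and the 20 largest stable falls (right) among the genes described here with at least 10 reads per library. Blue circles are the 4 control livers, red squares the 4 livers labelled DKO and short bars the group means. No red square crosses into the blue range in any row, and Saa1, Saa2 and Orm2 show the widest spread among control livers.

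Promoter sequences were searched for 4 motifs, to show where the clock elements lie in the genes called. RefSeq promoters (GRCm38.p6, from 250 bases before to 50 bases after a start) were held for 10265 tested genes, 13103 promoters in all. The core of the ROR element was spelled ANTAGGTCA and searched on both strands. It was found in 5 of 237 promoters of stably higher genes (2.11%), in 2 of 173 promoters of stably lower genes (1.16%) and in 0.458% of all promoters searched. This spelling and that of the D-box were chosen after several spellings had been looked at, so the shares are descriptions. The 5 promoters of higher genes are shown because they include a known target, Arntl, beside genes described above. Those of lower genes belong to unnamed gene models and are not shown. The promoters held gave no match for the clock genes Npas2, Cry1 and Clock. Capitals mark the match.
Arntl, chr7:113207529-113207557, plus strand: gaaggcagaaAGTAGGTCAgggacggagg
Nfil3, chr13:52981040-52981067, minus strand: gcgcggcgctcggaacTGACCTACTaac
Slc45a3, chr1:131970475-131970515, plus strand: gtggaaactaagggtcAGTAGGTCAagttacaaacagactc
Tjp3, chr10:81291767-81291807, minus strand: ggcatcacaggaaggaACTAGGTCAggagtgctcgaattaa
Leo1, chr9:75441443-75441483, plus strand: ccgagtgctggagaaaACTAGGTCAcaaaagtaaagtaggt
Each is written 5′ to 3′ on the strand of its gene, and in Nfil3 the match reads in the other direction. The Arntl match begins 28 bases after a start and the Nfil3 match ends within 12 bases of one, while that of Tjp3 lies 210 bases before. Leo1, a subunit of the PAF1 elongation complex that the rule for named genes did not admit and that is named for this match, rose from 5.31 to 15.3 TPM.

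The D-box, the element bound by Nfil3 as a repressor and by the PAR bZIP factors Dbp, Tef and Hlf as activators, was spelled TTANGTAA. It was found on either strand in 10 of 173 promoters of stably lower genes (5.78%), in 5 of 237 of stably higher genes (2.11%) and in 1.66% of all promoters searched. The 10 promoters belong to 10 genes, but the 5 belong to only 3, since 3 of them are overlapping promoters of 1 gene model that hold the same site. Among the 10 genes, Apol9a and Apol9b, named for this match, carry the same 28 bases at and around it. An unnamed model among the 10 also held a ROR element core, in another of its promoters. Slc45a3, a rise shown above for its ROR element, is 1 of the 3 higher genes. Its D-box lies 219 bases before another start. Neither motif overlaps the other. The matches of 4 stably lower genes are shown, since a pair of them lies in the clock gene Per3 and the rest in genes of conjugation and sulfation that are described below. Capitals again mark the match.
Per3 nearer match, chr4:151044800-151044839, minus strand: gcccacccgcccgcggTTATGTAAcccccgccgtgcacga
Per3 farther match, chr4:151044847-151044886, minus strand: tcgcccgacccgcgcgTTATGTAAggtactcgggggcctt
Ugt1a9, chr1:88070661-88070700, plus strand: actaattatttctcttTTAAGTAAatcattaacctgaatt
Sult1a1, chr7:126676592-126676631, minus strand: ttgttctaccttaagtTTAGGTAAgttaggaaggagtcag
Gal3st1, chr11:3989716-3989755, plus strand: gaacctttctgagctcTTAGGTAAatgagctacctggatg
For the other motifs the shares were closer: the E-box CACGTG was in 11.8% of promoters of higher genes, 9.83% of lower genes and 9.74% of all, and the sequence AGGTCA alone in 16%, 19.7% and 13.7%.

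Calls among clock genes driven by E-boxes or D-boxes were all falls. Of 14 tested, 7 were called lower, 6 of them stably, and 0 were higher by limma, by voom or at an unadjusted p under 0.05. The other 7 were not called, 2 of the 14 had a positive difference, and the median difference was -0.34. Per3, a repressor of the period family, was at 36.2, 28.2, 31.8 and 29.7 TPM in control livers and at 17.3, 21.9, 18.6 and 17.6 TPM in livers labelled DKO. Wee1, a kinase that delays entry into mitosis, fell 3.25-fold from 29.7 ± 5.47 TPM, and Usp2, a deubiquitinase, fell 1.82-fold. Bhlhe40, a repressor that binds E-boxes, was at 199, 182, 101 and 104 TPM in control livers and at 63.6, 60.9, 55.9 and 60.3 TPM in livers labelled DKO, so its control livers fell into the same pairs as above. Of 9 tested genes of the corepressor complex 0 were called by limma or by voom on recovered reads, and 0 had an unadjusted p under 0.05. Their median difference was 0.04, and without control replicates 3 and 4 it was -0.07 with 1 gene called lower.

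Nuclear-encoded subunits of the respiratory chain were higher as a group in livers labelled DKO. Of 81 subunits tested, 79 had a positive difference, against 50.1% of all genes, and 29 were called higher (35.8%) and 0 lower by limma, with a median difference of 0.30. Also 0 were lower at an unadjusted p under 0.05 or by voom. Groups did not overlap for 39 subunits, against 11.5% of all genes tested. Their summed level was 13400, 15571, 15068 and 16779 TPM in the control group and 19574, 18438, 18875 and 17538 TPM in livers labelled DKO, a ratio of means of 1.22, and the lowest of the livers labelled DKO lay above the highest control liver. The number called depended on single libraries: it was 8 without DKO replicate 1, 12 without DKO replicate 2, 14 without DKO replicate 3, 15 without DKO replicate 4, 15 without control replicate 1 and 16 without control replicate 3.

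Mean summed levels were higher in all 5 complexes, but in complexes III and IV the groups overlapped. Control replicate 4 was at 2716 TPM in complex III and 3851 TPM in complex IV, above DKO replicate 4 at 2612 and 3759 TPM. The ratio of summed levels was 1.22 for complex I, the entry point for NADH (40 genes), and 1.25 for complex II, which oxidises succinate (4). It was 1.23 for complex III (9) and 1.21 for complex IV, the oxygen-consuming end of the chain (12). For complex V, the ATP synthase, it was 1.24 (16). Genes were assigned to complexes by name alone, so relatives such as Ndufa4l2 and Ndufs6b count among the 40. Atp5b, the catalytic beta subunit of the synthase, was at 584, 648, 599 and 640 TPM in control livers and at 783, 752, 756 and 769 TPM in livers labelled DKO. That is a difference of 0.31 ± 0.05 (limma adjusted p = 0.00596), a small change with little spread within either group. Sdha, the flavoprotein of complex II, rose from 376 ± 20.6 to 472 ± 11.8 TPM, Ndufb9 of complex I from 183 ± 6.26 to 246 ± 12.4 TPM and Cox7a2 of complex IV from 331 ± 14.9 to 424 ± 30.1 TPM. Ndufb3 and Atp5mpl were the other subunits whose stable call also held without either pair of control livers; Atp5g3 and Atp5k were stable but their calls ended without control replicates 1 and 2 (adjusted p = 0.0816) and without control replicates 3 and 4 (adjusted p = 0.0522).

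Other abundant machinery had no calls in limma. The 13 genes encoded by the mitochondrial genome had a median difference of 0.02, with an unadjusted p under 0.05 for 1 higher and 1 lower genes and 0 called by voom, and their summed level was 36635 ± 1393 TPM in the control group and 35352 ± 3223 TPM in livers labelled DKO. The 87 cytosolic ribosomal protein genes had a median of 0.05, with an unadjusted p under 0.05 for 2 higher and 0 lower genes and 0 called by voom. The 38 proteasome genes had a median of 0.00, with an unadjusted p under 0.05 for 2 higher and 3 lower genes and 1 called by voom. Whether the nuclear and the mitochondrial subunits differ in their change was not tested.

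**Figure D3:**
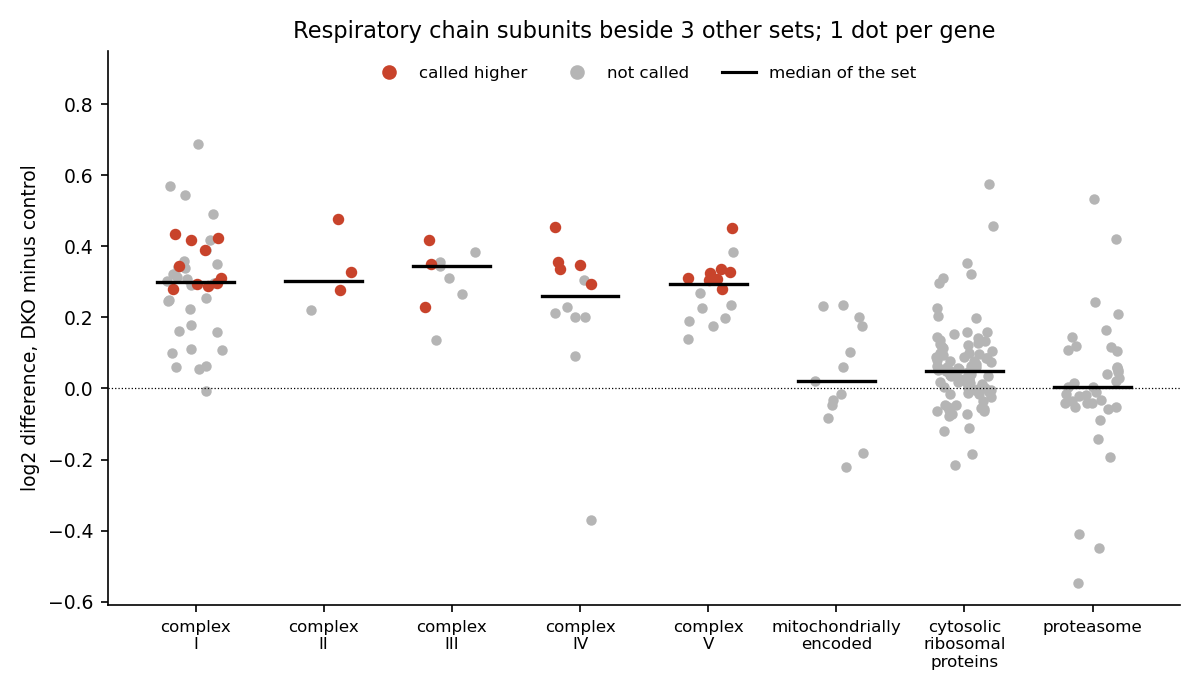
The log2 difference, livers labelled DKO minus control livers, of each nuclear gene assigned by name to complexes I to V. Mitochondrially encoded genes, cytosolic ribosomal proteins and proteasome genes are drawn beside them. Each dot is a gene, red where called higher, and black lines are medians. The medians of the 5 complexes lie between 0.26 and 0.34, and those of the 3 other sets between 0.00 and 0.05.

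Calls among enzymes of glycine, serine and methionine metabolism were all rises. Of 34 tested, 6 were stably higher, against 1.46% of all genes tested, and the median difference was 0.14. By limma or voom 0 were called lower (1 at an unadjusted p under 0.05). Cbs, which draws homocysteine into cysteine synthesis, was at 122, 143, 166 and 150 TPM in control livers and at 324, 282, 278 and 281 TPM in livers labelled DKO. The groups did not overlap, with means of 146 ± 18.1 and 291 ± 21.8 TPM. Agxt, the peroxisomal enzyme that turns glyoxylate into glycine, rose from 385 ± 75 to 767 ± 80.7 TPM, and its mitochondrial relative Agxt2 from 141 ± 3.98 to 188 ± 11.7 TPM. The glycine cleavage system gained both its decarboxylase Gldc, from 52.4 to 177 TPM, and its aminomethyltransferase Amt, from 63 to 85.1 TPM.

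Calls in amino acid breakdown were also rises, while calls in amino acid uptake and asparagine synthesis were mostly falls. Of 46 genes of the urea cycle and amino acid breakdown 39 had a positive difference, 4 were stably higher and 0 were called lower by limma or voom (1 at an unadjusted p under 0.05), with a median of 0.21. Kynu, which cleaves kynurenine on the tryptophan route, was at 91.2, 92.8, 90.5 and 72.6 TPM in control livers and at 156, 148, 137 and 164 TPM in livers labelled DKO. Oat, an ornithine aminotransferase, rose 1.63-fold and Got1, the cytosolic aspartate aminotransferase, 1.70-fold. Among 35 amino acid transporters 3 were stably lower and 0 stably higher. Slc7a2, a carrier of arginine and lysine, was at 384, 407, 382 and 366 TPM in control livers and at 224, 239, 208 and 224 TPM in livers labelled DKO, and Slc38a2, which brings in glutamine and other neutral amino acids, fell from 104 ± 8.34 to 57.9 ± 7.27 TPM.

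Asns, the asparagine synthetase, was at 40.1, 37, 27.6 and 15.9 TPM in control livers and at 6.39, 7.04, 1.89 and 4.07 TPM in livers labelled DKO. It fell 6.22-fold with no overlap of groups. It was the 1 stable call among 22 tested targets of ATF4, the transcription factor of the amino acid response, whose median difference was -0.04.

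Phase I and phase II enzymes of drug and steroid metabolism split by family. Of 22 glutathione transferases 5 were stably higher and 1 stably lower, against 1.46% and 1.05% of all genes tested. Gstm7 was at 60.3, 72.4, 70.7 and 75.7 TPM in control livers and at 194, 160, 181 and 176 TPM in livers labelled DKO, Gstm2 rose 3.57-fold and Gstm6 2.37-fold. Gstm3 rose 4.10-fold, from 264 ± 73.1 to 1083 ± 445 TPM, with DKO replicate 1 at 1726 TPM and the other 3 livers between 783 and 1038 TPM. These Gstm genes are close copies, so reads may have been shared among them. Gsta4, which detoxifies the lipid peroxidation product 4-hydroxynonenal, went the other way, at 206, 259, 156 and 226 TPM against 96.9, 78.9, 100.4 and 83.2 TPM.

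Cytochrome P450 genes of families 1 to 3 leaned higher, with 33 of 42 differences positive, 4 stable rises and 1 stable fall. The number called higher was 13 (30.95%, against 2.99% of all genes tested), but 4 to 11 with any 1 library left out. Cyp2a5, which oxidises coumarin and nicotine, gained the most RNA of any gene with a stable rise: it rose from 2414 ± 413 to 4848 ± 320 TPM, although close copies of this gene may share its reads. Cyp2c55 rose from 11.5 ± 6.16 to 47.8 ± 11.7 TPM, with control replicate 1 lowest at 3.94 TPM, and Cyp2j6 from 63.1 ± 2.19 to 84.3 ± 1.7 TPM. Cyp2d40 fell from 96 ± 18.9 to 49.2 ± 6.99 TPM.

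Glucuronosyl and sulfotransferases, which tag drugs, bilirubin and hormones for excretion, leaned lower. Of 26 tested only 5 had a positive difference, 3 were stably lower and 0 stably higher, and the median was -0.24. Ugt1a1, which conjugates bilirubin, was at 176, 176, 151 and 158 TPM in control livers and at 105, 106, 111 and 105 TPM in livers labelled DKO. Ugt1a9 fell from 78.6 ± 15.2 to 21 ± 8.66 TPM and Sult1a1, a phenol sulfotransferase, from 323 ± 26.1 to 194 ± 36.8 TPM; both calls ended without control replicates 1 and 2 (adjusted p = 0.0602 and 0.0985). The genes of the Ugt1a locus share their last exons, so the level of each is uncertain. Gal3st1, a sulfotransferase of galactolipids, fell from 2.64 ± 0.654 to 0.572 ± 0.118 TPM.

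Among carriers of organic ions the steepest fall was that of Slc22a7. This carrier, which takes organic anions into hepatocytes, was at 21.7, 24.4, 47.3 and 25.7 TPM in control livers and at 3.25, 4.92, 5.73 and 4.01 TPM in livers labelled DKO, a 6.66-fold fall. Slc22a5, the carnitine transporter, fell from 32.6 ± 3.14 to 17.1 ± 1.52 TPM. These were the 2 stable calls among 28 tested, whose median difference was 0.02. Slc10a2, a bile acid carrier, fell 4.79-fold from 10.7 ± 2.61 TPM, and Slc16a5, a monocarboxylate carrier, 6.36-fold from 9.07 ± 2.92 TPM.

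Stable calls in choline phospholipid metabolism went in both directions. Chka, the choline kinase that starts phosphatidylcholine synthesis, was at 6.87, 6.91, 4.4 and 4.8 TPM in control livers and at 43.9, 55.5, 34.5 and 38.2 TPM in livers labelled DKO, a rise of 2.71 ± 0.17 (limma adjusted p = 5.25e-06). Gpcpd1, which splits glycerophosphocholine back to choline, was at 189, 147, 196 and 213 TPM against 37, 74.6, 70.7 and 38.3 TPM. Pcyt1a, the rate-limiting enzyme of phosphatidylcholine synthesis, fell from 47.8 ± 2.45 to 36.4 ± 1.59 TPM. The remaining 22 of the 25 tested genes of the list had no stable call. In sphingolipid metabolism calls went in both directions. The median was -0.03, or 0.09 without control replicates 1 and 2 and -0.13 without control replicates 3 and 4. Of 26 genes 1 was stably higher, Degs1, a desaturase of ceramide synthesis, whose call ended without either pair of control livers, and 2 were stably lower. Cers6, a ceramide synthase, fell from 16.2 ± 3.5 to 6.09 ± 0.872 TPM and Ugcg, which makes glucosylceramide, from 25.5 ± 6.54 to 14.1 ± 0.549 TPM.

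In sterol metabolism a single brake gene rose, while most synthesis genes had negative differences and few passed the test. Insig2, which holds the sterol regulator SREBP in the endoplasmic reticulum, was at 54.5, 68.7, 52.1 and 46.5 TPM in control livers and at 265, 226, 221 and 222 TPM in livers labelled DKO. It was the 1 stable call among 30 genes of SREBP processing and cholesterol synthesis, of which 6 had a positive difference, with a median of -0.33. The number called lower among these 30 was 1. It was 6 without DKO replicate 1, 2 without re-expression replicate 1 or 3, and 0 when any of the replicates 2, 3 and 4 of either group was left out. Cyp8b1, the sterol 12-hydroxylase that sets the makeup of bile acids, rose 2.43-fold from 314 ± 58.5 TPM, and Acox2, a peroxisomal oxidase that shortens bile acid side chains, rose 1.34-fold. Fads2, a desaturase of polyunsaturated fatty acids, fell from 385 ± 61.4 to 252 ± 20.9 TPM.

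Extracellular lipases changed in both directions. Lpl, which frees fatty acids from circulating triglyceride and is low in adult liver, was at 12.5, 11.6, 12.5 and 12.5 TPM in control livers and at 35.4, 40.8, 61 and 66.9 TPM in livers labelled DKO. Lipc, the hepatic lipase, rose from 179 ± 11.5 to 315 ± 24.9 TPM. Lipg, the endothelial lipase, which acts on high-density lipoprotein, was at 19.7, 29.8, 19.5 and 11.4 TPM against 2.31, 2.92, 5.4 and 2.58 TPM. The 3 were the stable calls among 30 genes of lipoproteins and lipid uptake, whose median was 0.03.

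Fatty acid oxidation showed calls in both directions and no lean of the list, with 19 of 38 differences positive and a median of 0.00. Ppara, the receptor that drives oxidation genes in fasting, was at 253, 268, 251 and 251 TPM in control livers and at 147, 167, 164 and 162 TPM in livers labelled DKO. Cpt1a, which admits long chains to mitochondria, fell 1.55-fold. Pdk4, a kinase that shuts off pyruvate oxidation, was called higher at 3.76 and 19.9 TPM, and its call ended without control replicates 1 and 2 (adjusted p = 0.0989). Acot4, a peroxisomal thioesterase for succinyl-CoA and other acyl-CoAs, was at 35.9, 22.8, 16.4 and 28 TPM in control livers and at 4.59, 5.12, 5.45 and 4.64 TPM in livers labelled DKO. Its neighbour Acot3 fell from 6.08 ± 2.91 to 0.19 ± 0.111 TPM, and 8 of the 10 tested thioesterases had no call.

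Triglyceride genes likewise split. Plin5, a lipid droplet coat protein that contacts mitochondria, was at 30.9, 41.8, 31.7 and 36.4 TPM in control livers and at 91, 89, 114 and 68.4 TPM in livers labelled DKO. Lpin2, a phosphatidate phosphatase of triglyceride synthesis, fell from 139 ± 16.6 to 71.7 ± 13.1 TPM. In all, 2 of 28 genes were stably higher and 2 stably lower, against 1.46% and 1.05% of all genes tested. The median was -0.06.

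Among nuclear receptors, PPARdelta and PPARalpha moved in opposite directions. Ppard, widely expressed and low in control liver, was at 2.05, 2.55, 3.25 and 2.38 TPM in control livers and at 14.6, 14, 13.1 and 12.6 TPM in livers labelled DKO, a difference of 2.04 ± 0.19 (limma adjusted p = 9.35e-05). Esr1, the oestrogen receptor alpha, was at 14.3, 12.7, 15.1 and 11.8 TPM against 3.96, 5.78, 3.04 and 3.43 TPM. Of 33 receptors tested 1 was stably higher and 4 were stably lower, Ppara among them, against 1.46% and 1.05% of all genes tested. The median difference was -0.05.

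Genes that activate or clear hormones changed in both directions. Dio1, the deiodinase that activates thyroid hormone, was at 114, 176, 227 and 147 TPM in control livers and at 34.2, 40.3, 32.2 and 29.4 TPM in livers labelled DKO. Hsd17b6, which oxidises androgen and retinol metabolites, was at 816, 660, 597 and 801 TPM against 1687, 1530, 1601 and 1946 TPM. Cyp17a1, the enzyme that opens the androgen and cortisol routes, rose from 3 ± 1 to 22.2 ± 10 TPM, with DKO replicate 3 lowest at 9.15 TPM. Of the 26 genes of this list 3 were stably higher and 2 stably lower, against 1.46% and 1.05% of all genes tested. The median was -0.12.

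Retinoid genes with calls were mostly higher, while the list as a whole had a median of 0.02. Of 31 tested 5 were stably higher and 0 stably lower, against 1.46% and 1.05% of all genes tested. Dhrs3, which returns retinal to retinol, was at 107, 111, 128 and 124 TPM in control livers and at 176, 187, 202 and 167 TPM in livers labelled DKO. Stra6l, a receptor for retinol-binding protein in liver, rose from 53 ± 3.81 to 84.8 ± 5.05 TPM, and Dhrs9, a retinol dehydrogenase, from 0.723 ± 0.346 to 4.03 ± 1.08 TPM. Lrat, which esterifies retinol and marks stellate cells, was called higher at 14.8 and 28.7 TPM, and its call ended without control replicates 1 and 2 (adjusted p = 0.102).

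Glucose handling changed at few points. Of the glycogen-targeting subunits of protein phosphatase 1, a pair rose: Ppp1r3b was at 123, 149, 65.3 and 57.8 TPM in control livers and at 282, 304, 224 and 276 TPM in livers labelled DKO, while Ppp1r3c rose 3.75-fold, with DKO replicate 3 apart at 113 TPM and a call that ended without control replicates 3 and 4 (adjusted p = 0.0592). The remaining 20 of 22 tested glycogen genes had no stable call, but another such subunit, Ppp1r3g, was called lower. That call, named after its values were seen, ended without control replicate 3 or 4, any 1 of the livers labelled DKO, or re-expression replicate 2 or 4. Slc2a2, the hepatocyte glucose transporter GLUT2, fell 1.38-fold from 299 ± 22.1 TPM. Txnip, a suppressor of glucose uptake that glucose itself induces, was at 276, 96.1, 165 and 187 TPM against 49.4, 58.6, 55.4 and 58 TPM. Of 37 genes of glucose metabolism 18 had a positive difference and the median was 0.00.

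Acute phase proteins, which hepatocytes secrete in response to cytokines, were among the largest falls on the log2(TPM + 1) scale. Of 29 tested 4 had a positive difference, 7 were stably lower and 0 were called higher by limma, with a median of -0.68. At an unadjusted p under 0.05, as by voom or without control replicate 1, 1 was higher. In all, 9 were called lower, and without control replicates 1 and 2 this became 4, with 1 called higher. Saa1, serum amyloid A, was at 308, 165, 754 and 159 TPM in control livers and at 12.9, 15.3, 16.4 and 9.84 TPM in livers labelled DKO. Orm2, an orosomucoid, was at 1306, 403, 1217 and 153 TPM against 42.9, 37.7, 38.6 and 34.3 TPM. Saa2 moved with Saa1, and the 2 are close copies. The control livers differed widely among themselves, with replicates 1 and 3 high and 2 and 4 lower, while the livers labelled DKO lay in a narrow range below all of them.

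Fgl1, a secreted fibrinogen relative, fell from 382 ± 161 to 89.9 ± 16.8 TPM, a call that ended without control replicates 1 and 2 (adjusted p = 0.0759), and Saa4 fell from 646 ± 170 to 260 ± 9.13 TPM. The Kupffer cell markers, macrophage genes of the liver, leaned the same way: all 12 had a negative difference, 0 were called by limma or voom or had an unadjusted p under 0.05, the median was -0.41, and their summed level ran from 519 to 1164 TPM in control livers, highest in replicates 1 and 3, and from 551 to 613 TPM in livers labelled DKO. Neutrophil markers ran from 11.3 to 56.4 TPM and from 5.11 to 14.4 TPM, again highest in control replicates 1 and 3. The part of these cells in the acute phase result was not tested.

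Most interferon and antigen presentation genes had negative differences, and the number called depended on the method. Of 39 interferon response genes 3 had a positive difference and 1 was stably lower, with a median of -0.25, and of 31 antigen presentation genes 4 had a positive difference and 1 was stably lower, with a median of -0.24. Among interferon genes limma called 1 lower, voom called 6 and 14 had an unadjusted p under 0.05. Limma called 4 without control replicate 4, 2 without re-expression replicate 1 and 6 without control replicates 3 and 4. Among antigen presentation genes limma and voom each called 2 lower, and 9 had an unadjusted p under 0.05. The stable calls were Zbp1, a sensor of nucleic acids in the Z form, at 14, 9.29, 11.9 and 8.38 TPM in the control group and 2.43, 3.7, 3.01 and 2.96 TPM in livers labelled DKO, and Nlrc5, the activator of MHC class I genes, which fell 1.82-fold from 34.4 ± 9.55 TPM. These lists lean on genes that macrophages also express, and the part of the marker shift above was not tested.

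Other secreted proteins of hepatocytes moved singly. Serpina1e, an alpha-1-antitrypsin gene, lost the most RNA of any stable fall, from 5516 ± 1142 to 3150 ± 320 TPM, and is a close copy of its neighbours. Serpina12, the adipokine vaspin, was at 6.32, 14.2, 15.4 and 15.7 TPM in control livers and at 44.4, 44.8, 35.8 and 41.4 TPM in livers labelled DKO. F11, coagulation factor XI, rose 1.68-fold from 154 ± 23.6 TPM and was the 1 stable call among 29 coagulation genes. Nrg4, a growth factor secreted by liver and fat, fell from 15.3 ± 3.06 to 5.09 ± 1.39 TPM, and Prg4, a lubricating proteoglycan, from 43.9 ± 9.28 to 15.3 ± 2.95 TPM.

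Further falls of at least 2-fold had no shared list. Tgm1, a transglutaminase, was at 28.1, 33, 29.1 and 24.9 TPM in control livers and at 11.5, 7.46, 7.94 and 7.11 TPM in livers labelled DKO. Cnmd, the cartilage and vessel regulator chondromodulin, fell 5.94-fold from 12.7 ± 2.57 TPM, and Alpl, tissue-nonspecific alkaline phosphatase, 3.11-fold from 15.4 ± 2.22 TPM. Hcn3, a cation channel gene that overlaps Pklr on the opposite strand, fell from 18.9 ± 9.88 to 2.4 ± 1.41 TPM, a call that ended without control replicates 1 and 2 (adjusted p = 0.0527). Nampt, which recycles nicotinamide to NAD, fell 2.30-fold from 73.7 ± 17.5 TPM as the 1 stable call of 21 NAD genes.

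The p53 and cell cycle lists moved through few members. Of 26 p53 targets 2 were stably higher, Cdkn1a among them, and 0 stably lower. Of 35 cyclins, kinases and inhibitors 2 were stably higher and 1, Wee1, stably lower, against 1.46% and 1.05% of all genes tested. Mcm7, part of the helicase that opens DNA for replication, rose from 7.97 ± 0.688 to 13.1 ± 0.878 TPM, and the list's median was -0.09.

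Most matrix genes, and the stellate and endothelial markers, had positive differences, with few stable calls. Of 51 collagens and matrix enzymes 41 had a positive difference, with a median of 0.35, 1 stable rise (Loxl4) and 2 stable falls. The falls were Col27a1, a fibrillar collagen, at 6.2, 9.46, 10.3 and 14.2 TPM in the control group and 1.96, 2.69, 2.79 and 2.45 TPM in livers labelled DKO, and Col15a1, a basement membrane collagen, which fell 4.01-fold from 9.28 ± 3.49 TPM. All 10 stellate cell markers had a positive difference, 2 stably higher, and their summed level was 283 to 411 TPM in the control group and 452 to 491 TPM in the group labelled DKO. Reln, a secreted glycoprotein of stellate cells, rose from 26.4 ± 4.58 to 45.5 ± 2.62 TPM. All 10 sinusoidal endothelium markers were also positive, with 0 called by limma or voom and 8 at an unadjusted p under 0.05, at 244 to 284 TPM and 304 to 370 TPM. In whole liver, more or fewer cells of a type and more or less RNA per cell cannot be told apart, and the part of these cells in the matrix result was not tested.

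**Figure D4:**
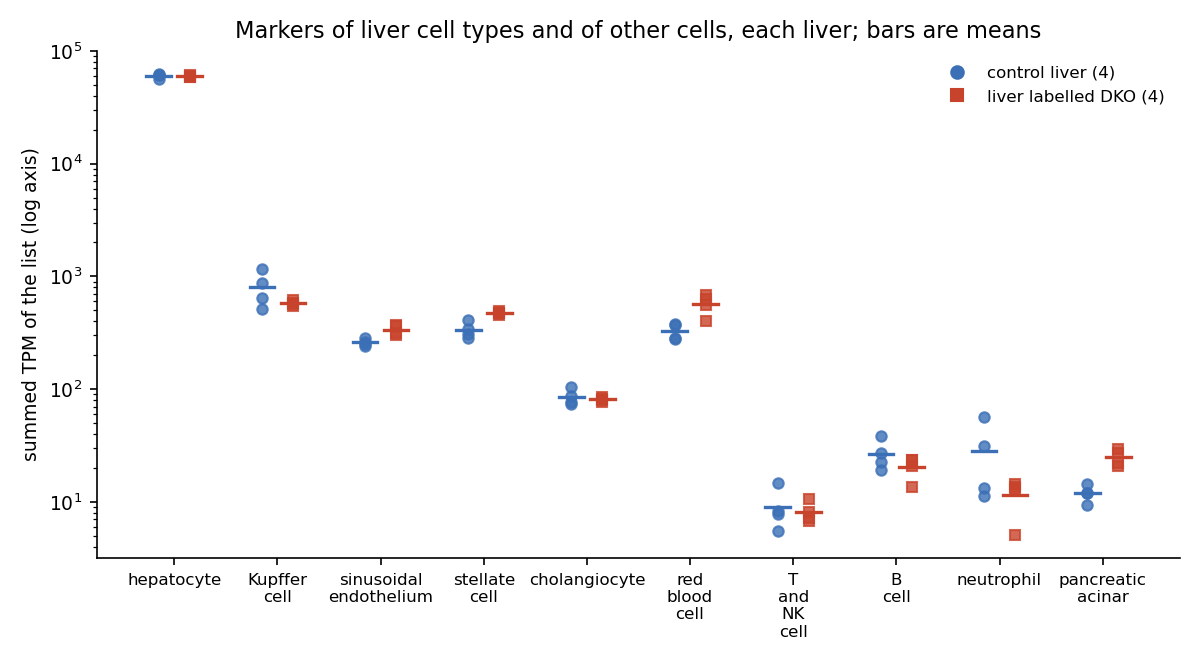
Summed TPM of marker lists (vertical log axis) in each liver, with control livers as blue circles, livers labelled DKO as red squares and bars at group means. Sinusoidal, stellate, red blood cell and pancreatic acinar sums lie higher in all 4 livers labelled DKO, Kupffer cell and neutrophil sums spread widely among control livers, and hepatocyte sums differ little.

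Markers of cells foreign to hepatic lobules were mostly at low levels. Red blood cell genes summed to 276 to 382 TPM in the control group and 400.3 to 687 TPM in the group labelled DKO, with 0 of 5 called by limma, 1 by voom and 5 at an unadjusted p under 0.05. Of the pancreatic acinar markers only Cela1, an elastase also made outside the pancreas, passed the level filter; it was at 9.09, 12, 14.5 and 11.9 TPM against 26.6, 22.2, 29.6 and 20.9 TPM, a call that ended without control replicates 1 and 2 (limma adjusted p = 0.0519), while the defining enzymes Prss2 and Amy2b were listed at 0 in all 8 livers. The adipocyte hormones Adipoq and Lep were listed at 0 as well. Sox9, a factor of bile duct cells, rose from 2.04 ± 0.589 to 8.97 ± 2.32 TPM, whereas the summed cholangiocyte markers were 85.9 ± 13.6 and 81.2 ± 3.95 TPM. Lrp5, a Wnt coreceptor, rose 2.06-fold.

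**Figure D5:**
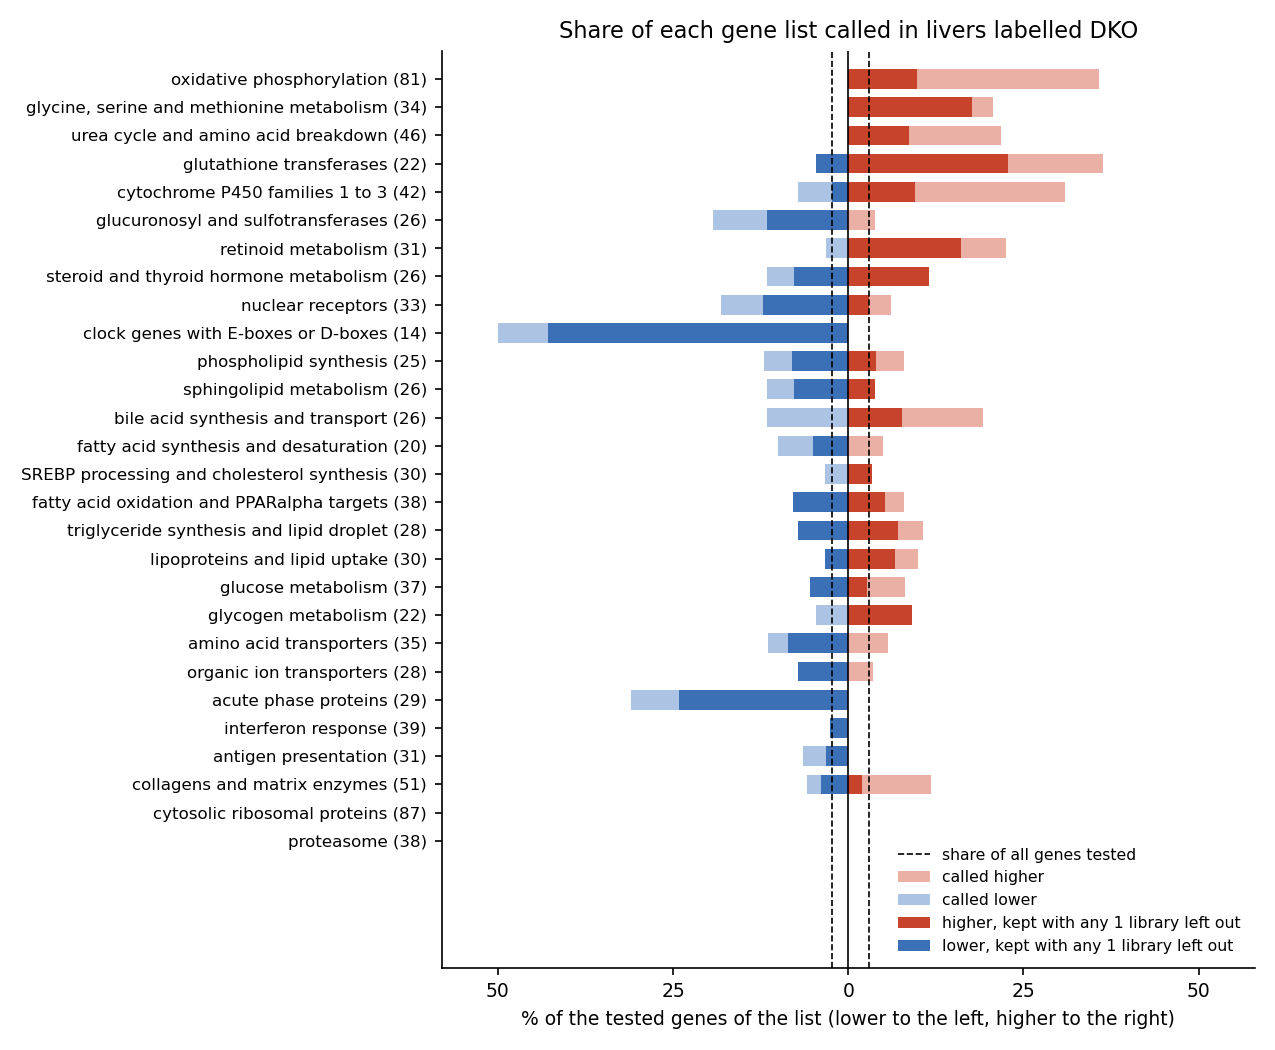
Share of the tested genes of each list drawn, with their number in brackets, called higher (right) and lower (left) in livers labelled DKO, in percent. Dark bars are stable calls, pale bars the remaining calls, and dashed lines the shares of all genes tested, 2.99% higher and 2.34% lower. Among the lists drawn, which leave out the clock genes with ROR elements and the cell type markers, glutathione transferases, oxidative phosphorylation and cytochrome P450 families 1 to 3 reach furthest right, and clock genes with E-boxes or D-boxes and acute phase proteins furthest left.

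Measured as transcript mass, the stable rises together gained 17744 TPM and the stable falls lost 13966 TPM in group means. The gains were led by Cyp2a5, Mug1, a protease inhibitor of plasma that rose from 3006 ± 156 to 3998 ± 297 TPM in the full fit but was not called without control replicates 3 and 4 (adjusted p = 0.059), and Hsd17b6. Genes that crossed 1 TPM were few. In 10 stable rises every control liver was under 1 TPM and every liver labelled DKO was at 1 TPM or more. Of these, 9 had a mean under 10 reads per library. The reverse held in 8 stable falls, 6 of them under 10 reads per library. Of the 452 stable calls 80 were gene models without a given name, and 11 of these overlap a named stable gene on the opposite strand and moved in its direction.

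Some called genes were neighbours. Among 17918 pairs of adjacent tested genes, 61 pairs were both called higher (0.34%), 46 both lower (0.257%) and 11 in opposite directions (0.0614%). Of all genes tested, 2.99% were called higher and 2.34% lower. These are shares of single genes and cannot be set directly against the shares of pairs. Whether such pairs were more common than the single-gene shares would give was not tested. There were 18 runs of at least 3, some made of close copies that may share reads and some of unnamed models beside a named gene. Gstm7, Gstm6 and Gstm3 formed a run of rises, and Saa4, Saa1 and Saa2 a run of falls. A run of rises on chromosome 2 held Abtb2, an adaptor of protein degradation, at 4.07, 3.87, 4.7 and 5.02 TPM in the control group and 13.4, 13.5, 13.1 and 10.5 TPM in livers labelled DKO, and Nat10, an RNA acetyltransferase, which rose 1.47-fold. A run on chromosome 10 held Avpr1a, the hepatic vasopressin receptor, which rose from 14.1 ± 1.84 to 41.4 ± 3.19 TPM with 3 unnamed models beside it, and another run there held Sumo3, a protein modifier, and Ube2g2, a ubiquitin-conjugating enzyme, which rose 1.48-fold and 1.86-fold.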

How the data were processed

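RNA of 12 mouse livers was sequenced from libraries of a stranded total RNA kit, per the labels' protocols. Reads were handled with STAR 2.7.1a and featureCounts 2.0.1 on build mm10, and DESeq2 1.36.0, bcl2fastq 2.17 and SAMtools 1.9 are also listed, per the submitters' processing notes. Use of strand in counting is not given in the sources, so a gene and its antisense partner may share reads. The deposited table gives TPM per gene, computed by the authors, beside the authors' log2 fold changes and adjusted p-values for 3 numbered comparisons that its header does not name. By a scan of offsets, TPM multiplied by gene length less 199 bases gave whole reads in 100% of values (tolerance 0.01 reads). Their sum gave the number of reads assigned to genes in each library.

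Genes with a mean of at least 1 TPM over the 8 libraries were tested. limma 3.58.1 (R 4.3.3) fitted 3 group means to log2(TPM + 1) of all 12 libraries, with 9 residual degrees of freedom, a prior variance that follows mean expression, two-sided tests and Benjamini-Hochberg adjustment over all genes tested, with a threshold of 0.05. On this scale the change of a low-level gene comes out too small. Ratios are of mean TPM. Single values of Nr1d1 and Nr1d2 were compared with exact permutation tests. The procedure was tested on simulated data. P-values measure the spread between livers, and every pair of livers in a group differed by more than sampling noise (chi-square over degrees of freedom of 4.08 to 13.5). Replicate numbers did not pair the livers. Intervals were not drawn from reads.

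The members and the 73 gene lists were chosen with earlier results of these data known. Genes named are stable calls (made in the full fit and in each fit that leaves out 1 library) among the 30 largest rises and falls, in a list, among the 10 largest gains or losses of TPM, crossing 1 TPM or in runs of at least 3 neighbouring calls. Unnamed gene models were counted only, and some named genes that the rule admits are not reported here. Gene positions come from GENCODE M21 and promoters from RefSeq (GRCm38.p6). Alternatives were other pseudocounts, filters, scalings and priors, voom on recovered reads, the 8 libraries alone, a replicate block, each library left out and each pair of control livers left out. Figures were drawn with matplotlib 3.10.9 in Python 3.11.15.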

Additional observations from a re-analysis of the deposited data

Results flagged for a closer look

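Among the genes described, 14 values of single livers lay far from the other 3 of their group, with a gap to the nearest of them above Dixon's 95% critical value for a group of 4. Chance flags about 1 in 20 groups, and 246 groups were examined. High among control livers were Slc13a2 at 3.72 TPM and Slc22a7 at 47.3 TPM, both in replicate 3, Ppara at 268 TPM in replicate 2 and Nlrc5 at 48.6 TPM in replicate 1. Low among control livers were Lpl at 11.65 TPM in replicate 2, Kynu at 72.6 TPM in replicate 4 and Serpina12 at 6.32 TPM in replicate 1. High among livers labelled DKO were Insig2 at 265 TPM, Cbs at 324 TPM and Acot3 at 0.357 TPM, all in replicate 1, and Agxt2 at 205 TPM in replicate 2. Low among livers labelled DKO were F11 at 207.5 TPM and Ppp1r3c at 113 TPM, both in replicate 3, and Abtb2 at 10.5 TPM in replicate 4. The flags were spread over all 8 livers, with 1 to 3 in each, and in each of these genes the groups did not overlap.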

How the results depend on the processing

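The counts of called genes depended on which livers were fitted. With 1 library left out the higher genes numbered 335 to 526 and the lower genes 241 to 414. With the 8 libraries alone, which leaves fewer livers to estimate the spread, there were 330 higher and 241 lower genes. Without control replicates 3 and 4 the lower genes numbered 639, and without control replicates 1 and 2 they numbered 179; the median difference of all genes was then -0.08 and 0.07, and the cause was not tested. With the replicate number as a block the counts were 426 and 357, although the numbers did not pair the livers (correlations of same-numbered livers from -0.0705 to -0.0237). The Nr1d2 difference turned to 0.11 without control replicates 1 and 2 (exact permutation p = 0.267). It stayed negative in the other alternatives run on single values, and the Nr1d1 difference stayed positive in all of them. Apart from the targeted pair, genes were given values only if their call was stable, so the fits that leave out 1 library could not end it. Of the 121 such genes, 109 kept their direction and call in each of the 24 alternatives in which they were tested, and 0 changed direction. The 12 others lost the call without control replicates 1 and 2 (9 genes) or without control replicates 3 and 4 (3 genes), and Atp5g3 also with the 8 libraries alone (adjusted p = 0.0648).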
